A study of Homo sapiens with 16 samples.

Results

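The 40 genes described here make ribosomes or build the nucleolus. They were chosen by symbol for their known roles from the 60715 genes of the deposited table. No cut on their values was used, but earlier results of these data were known. All 40 were among the 19127 genes that reached 10 normalized counts in 2 or more libraries. RNA came from 2 established lines of anaplastic thyroid carcinoma, 8505c, which carries mutant BRAF, and CAL62. Each line was grown for 24 h in medium with serum and DEL-22379 at 1 µM or 10 µM, U0126 at 10 µM or the vehicle DMSO alone, with 2 replicates in each of the 8 groups and 16 libraries in all. DEL-22379 is an inhibitor of ERK dimerization and U0126 an inhibitor of MEK, the kinase that phosphorylates ERK. The sample labels give the doses in mM and the paper in µM, and the paper's unit is used here. Each genotype is represented by 1 cell line, so line and genotype cannot be told apart. The study calls the replicates biological, and the labels do not say whether they were separate cultures or passages, so p-values measure the spread between these libraries only.

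Ribosomes are assembled in the nucleolus around ribosomal RNA that RNA polymerase I transcribes, while RNA polymerase III makes the smallest ribosomal RNA and the tRNAs. Small nucleolar RNA-protein particles (snoRNPs) of the box C/D class methylate the new RNA and those of the box H/ACA class convert uridine to pseudouridine, and large groups of assembly factors then cut, fold and export the precursors of the small and of the large subunit. Growth signals through ERK and the transcription factor MYC are known to drive these genes, and large nucleoli are a common feature of fast-growing carcinoma cells.

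Values are normalized counts, that is, reads per gene divided by 1 size factor per library. Libraries held 25683054 to 43855905 recovered reads, and the 40 genes together took 0.343% to 0.838% of the normalized counts. Changes were tested with limma on log2(normalized count + 1), and a change was called where the p-value, adjusted over all genes tested, was under 0.05. Errors of fold changes are standard errors of that model, and the values of both replicates are given in the order 1 and 2. The model shares 1 spread per gene over both lines, so errors in 8505c cells also carry the spread between CAL62 libraries, and the reverse. Such values are relative within a library: fewer cells, or less RNA of every gene in each cell, cannot be told apart from no change. In CAL62 cells the libraries numbered 1 and 2 stood apart: 39 of the 40 genes were lower in replicate 2 than in replicate 1 with DMSO, and likewise 39 of 40 with 1 µM DEL-22379, 28 of 40 with 10 µM DEL-22379 and 35 of 40 with U0126. In 8505c cells 29 of 40 were lower in replicate 2 with DMSO, 33 with 1 µM DEL-22379, 16 with 10 µM DEL-22379 and 30 with U0126. The median difference between DMSO replicates was smaller there, 0.10 against 0.32 in CAL62 cells on the log2 scale. The deviations of same-numbered CAL62 libraries from their group means correlated with 0.22 to 0.50 across genes in all 6 pairs of groups. On this ground those libraries were taken as paired, but the fit as reported holds no term for the pairing. Values from a model with that number as a block are given where they move a count. As a check of the treatments, 13 of 13 genes known as transcriptional output of ERK fell with U0126 in 8505c cells and 12 of 13 in CAL62 cells. With 10 µM DEL-22379, 7 of the 13 fell in 8505c cells, while in CAL62 cells 7 rose and none fell. Of all genes tested, 5.87% fell with U0126 in 8505c and 15.1% in CAL62 cells. At 10 µM of DEL-22379, 6.57% fell in 8505c cells, and 16.8% fell and 17.1% rose in CAL62 cells. The ETS factor gene ETV5 had a log2 fold change of -3.26 in CAL62 and -4.30 in 8505c cells with U0126, with ETV4 at -5.14 in CAL62 and SPRY4 at -4.0 in 8505c cells. With DEL-22379, EGR1 and DUSP5 rose in CAL62 cells (5.04 and 3.12) and FOSL1 and SPRED2 fell in 8505c cells (-2.04 and -1.26). Mitochondrial transcripts took 9.23% and 7.84% of the counts with U0126 in CAL62 cells, against 8.02% and 6.72% with DMSO, and 3.95% and 3.39% with U0126 in 8505c cells, against 4.64% and 3.65% with DMSO; their part in the results was not tested. Of 7 thyroid markers 2 stayed under 10 normalized counts in every CAL62 library (NKX2-1 and TSHR) and 5 in every 8505c library (TG, TSHR, SLC5A5 and FOXE1 among them), while the 7 together summed to 7296 to 12655 in CAL62 and 3895 to 6335 in 8505c libraries. Of 5 immune markers 4 stayed under 10 in every CAL62 and 3 in every 8505c library, and the 5 summed to 565 to 1352 in CAL62 and 2124 to 3715 in 8505c libraries.

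With DMSO alone, levels per kb of exon differed widely among the 40 genes. NPM1, the nucleolar histone chaperone nucleophosmin, had the highest level in both lines, 8686 normalized counts per kb in CAL62 and 18541 in 8505c cells. It was followed by NCL, which encodes nucleolin, and NOP56, a core protein of box C/D snoRNPs, in both lines, with NCL second in 8505c and NOP56 second in CAL62 cells. At the other end, RRP12, which is needed for export of both precursors, was lowest in 8505c cells with 201 normalized counts per kb, and WDR12, a member of the PeBoW complex of large subunit assembly, was lowest in CAL62 cells with 150.1. NPM1 has 45 pseudogenes in the GENCODE annotation, with a highest value of 1491 normalized counts in 1 library, so its count may be split among copies.

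Between the untreated lines, 18 of the 40 genes were lower in CAL62 than in 8505c cells, 2 were higher, and the median log2 difference was -0.36, with -0.57 without replicate 1 and -0.16 without replicate 2 of the CAL62 DMSO group. Of all 19127 genes tested, 53% differed between the lines, with 27.4% lower and 25.6% higher in CAL62 cells. DKC1 (ENSG00000130826.18, chromosome X from 154762742 to 154777689), the pseudouridine synthase of box H/ACA snoRNPs, had 5326 and 4042 normalized counts in CAL62 and 10255 and 10056 in 8505c cells (log2 fold change -1.13, standard error 0.18, adjusted p = 0.00020). NPM1 (ENSG00000181163.13, chromosome 5 from 171387116 to 171411137) had 36564 and 29937 in CAL62 and 69677 and 72269 in 8505c cells (log2 fold change -1.10, standard error 0.16, adjusted p = 0.00010). Both CAL62 libraries lay below both 8505c libraries for each of these genes. The 2 genes higher in CAL62 were RRP12 (ENSG00000052749.14, chromosome 10 from 97356358 to 97426076), at 3095 and 2577 in CAL62 and 1920.1 and 1516 in 8505c cells (log2 fold change 0.73, standard error 0.13, adjusted p = 0.00055), and FBL, which encodes the box C/D methyltransferase fibrillarin, at 7195 and 5584 in CAL62 and 4219.7 and 4449 in 8505c cells (log2 fold change 0.55, standard error 0.16, adjusted p = 0.010). Again no library of 1 line overlapped the other line. The difference of FBL was no longer called without replicate 1 of the CAL62 DMSO group (adjusted p = 0.10) or without replicate 1 of the 8505c DMSO group (adjusted p = 0.058).

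U0126 lowered most of the 40 genes in both lines. In CAL62 cells 36 of 40 fell and none rose, with a median log2 fold change of -0.75 against 0.05 over all genes tested, of which 15.1% fell. In 8505c cells 29 of 40 fell and none rose, with a median of -0.62 against 0.02 over all genes tested, of which 5.87% fell. All 29 genes that fell in 8505c cells also fell in CAL62 cells, where they made up 80.6% of the 36. With 36 of the 40 called in CAL62 cells, a large overlap follows from the size of that list. Both U0126 libraries lay below both DMSO libraries for 40 of 40 genes in CAL62 cells and for 39 of 40 in 8505c cells, against 29.6% and 30% of all genes tested in those lines. RRN3, UTP15, PES1 and NPM1 passed the test in neither line. The changes were moderate: with an adjusted p under 0.01 and a fold change past 1.5 on the log2 scale, the study's cutoffs, POLR3G and LYAR were called in CAL62 cells and no member in 8505c cells, where 5.3% and 2.04% of all genes tested passed. The study applied 1.5 to shrunken log fold changes, while those here are not shrunken. The count in CAL62 cells was 21 without replicate 1 of DMSO and 22 without replicate 2 of U0126. The count in 8505c cells was 8 without replicate 1 of DMSO, 14 without replicate 2 of DMSO, 14 without replicate 1 of U0126 and 6 without replicate 2 of U0126.

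Among the polymerase genes, 4 of 5 fell with U0126 in CAL62 cells and 3 of 5 in 8505c cells. POLR3G (ENSG00000113356.13, chromosome 5 from 90471748 to 90514553), the subunit of RNA polymerase III that stem cells and tumour cells use in place of POLR3GL, had 271 and 222 normalized counts with U0126 in CAL62 cells, against 1025 and 672 with DMSO (log2 fold change -1.75, standard error 0.23, adjusted p = 0.00021). In 8505c cells it had 662 and 627 with U0126, against 1758 and 1799 with DMSO (log2 fold change -1.46, standard error 0.23, adjusted p = 0.0018). It had the lowest fold change of the 40 genes with U0126 in both lines, and the groups did not overlap. Exons of POLR3G overlap those of MBLAC2 on the opposite strand. POLR1B (ENSG00000125630.16, chromosome 2 from 112541915 to 112577150), the second-largest subunit of RNA polymerase I, had 1251 and 1278 with U0126 and 2401 and 2154 with DMSO in CAL62 cells (log2 fold change -0.85, standard error 0.11, adjusted p = 0.00014). In 8505c cells it had 1545 and 1547 with U0126 and 2505 and 2324 with DMSO (log2 fold change -0.64, standard error 0.11, adjusted p = 0.0023). The U0126 replicates of POLR1B lay close together in both lines, well below the DMSO libraries. POLR1C, a subunit shared by polymerases I and III, fell in both lines (-0.57 in CAL62 and -0.63 in 8505c cells on the log2 scale). POLR1A, the largest subunit of polymerase I, fell in CAL62 cells (-0.32, adjusted p = 0.031) and had -0.27 in 8505c cells (adjusted p = 0.10). RRN3, the factor that ties polymerase I to its promoter complex, had -0.24 and -0.24 (adjusted p = 0.061 and 0.11) in CAL62 and 8505c cells, and its annotated pseudogenes reach 711 normalized counts in 1 library.

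All 7 snoRNP genes fell with U0126 in CAL62 cells, 3 of the box C/D and 4 of the box H/ACA class, and 3 of the 7 fell in 8505c cells. NOP56 (ENSG00000101361.17, chromosome 20 from 2652145 to 2658393), whose introns carry several snoRNAs, had 9457 and 6856 normalized counts with U0126 in CAL62 cells, against 24581 and 17360.4 with DMSO (log2 fold change -1.36, standard error 0.22, adjusted p = 0.00072). In 8505c cells it had 10757 and 10201 with U0126, against 21938 and 19908 with DMSO (log2 fold change -1.0, standard error 0.22, adjusted p = 0.011). No U0126 library overlapped a DMSO library of its line. DKC1 fell by 1.02 in CAL62 and by 0.85 in 8505c cells on the log2 scale, and NOLC1, a chaperone of snoRNPs, fell by 0.90 and 0.62 in CAL62 and in 8505c cells. NHP2 (ENSG00000145912.9, chromosome 5 from 178149460 to 178153967), a core box H/ACA protein, was the 1 gene above DMSO in 8505c cells, with 3926 and 3963 normalized counts with U0126 and 3362 and 3862 with DMSO (log2 fold change 0.13, adjusted p = 0.66), a difference that did not pass the test. In CAL62 cells NHP2 had 1978 and 1636 with U0126 and 2932 and 2308 with DMSO (log2 fold change -0.53, standard error 0.16, adjusted p = 0.025).

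Of 12 small subunit factors, 11 fell with U0126 in CAL62 and 10 in 8505c cells, and over all 12, called or not, log2 fold changes ran from -1.24 to -0.55 in CAL62 and from -0.94 to -0.37 in 8505c cells. UTP15 was called in neither line and HEATR1 not in 8505c cells. RRP9 (ENSG00000114767.7, chromosome 3 from 51933430 to 51941941), a protein of the U3 snoRNP that starts small subunit assembly, had 524 and 595 normalized counts with U0126 in CAL62 cells, against 1463 and 1188 with DMSO (log2 fold change -1.24, standard error 0.14, adjusted p = 6.9e-05). RRP12 had 876 and 904 with U0126 in 8505c cells, against 1920.1 and 1516 with DMSO (log2 fold change -0.94, standard error 0.13, adjusted p = 0.0010). Both DMSO libraries lay above both U0126 libraries for each gene, with a wider gap between the DMSO replicates than between the U0126 replicates. UTP15, part of the complex that binds the nascent RNA, was the 1 small subunit factor that passed the test in neither line, with -0.60 in CAL62 and -0.60 in 8505c cells (adjusted p = 0.063 and 0.10). Of 12 large subunit factors, 11 fell in CAL62 and 10 in 8505c cells, and over all 12, called or not, log2 fold changes ran from -1.40 to -0.43 in CAL62 and from -1.08 to -0.48 in 8505c cells. Of these, PES1 was called in neither line and PPAN not in 8505c cells. MRTO4 (ENSG00000053372.5, chromosome 1 from 19251539 to 19260128), which holds the place of a stalk protein on the large subunit precursor, had 881 and 849 with U0126 in CAL62 cells, against 2583 and 2033 with DMSO (log2 fold change -1.40, standard error 0.18, adjusted p = 0.00014). In 8505c cells MRTO4 fell by 0.60 (standard error 0.18). Within the PeBoW complex, BOP1 fell by 1.26 in CAL62 and 0.75 in 8505c cells and WDR12 fell by 0.67 and 0.62 in those lines, while PES1 had -0.43 and -0.48 and did not pass the test (adjusted p = 0.067 and 0.079).

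Of the 4 abundant nucleolar proteins, NCL, DDX21 and LYAR fell in both lines. LYAR (ENSG00000145220.14, chromosome 4 from 4267701 to 4290169), a nucleolar regulator of cell growth, had 346 and 353 normalized counts with U0126 in CAL62 cells, against 1354 and 905 with DMSO (log2 fold change -1.66, standard error 0.17, adjusted p = 2.6e-05). In 8505c cells it fell by 0.95 (standard error 0.17). DDX21 (ENSG00000165732.13, chromosome 10 from 68956128 to 68985073), an RNA helicase that works with both polymerase I and ribosomal RNA processing, had 7420.4 and 6893 with U0126 in 8505c cells, against 14133 and 12549.5 with DMSO (log2 fold change -0.90, standard error 0.14, adjusted p = 0.0016). The U0126 libraries were low for both genes and overlapped no DMSO library. NPM1 had 29446 and 26737 with U0126 and 36564 and 29937 with DMSO in CAL62 cells (log2 fold change -0.24, adjusted p = 0.30), and 55514 and 52448 with U0126 and 69677 and 72269 with DMSO in 8505c cells (log2 fold change -0.40, adjusted p = 0.14). Its libraries did not overlap between the groups of a line, but the difference did not pass the test.

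**Figure D1:**
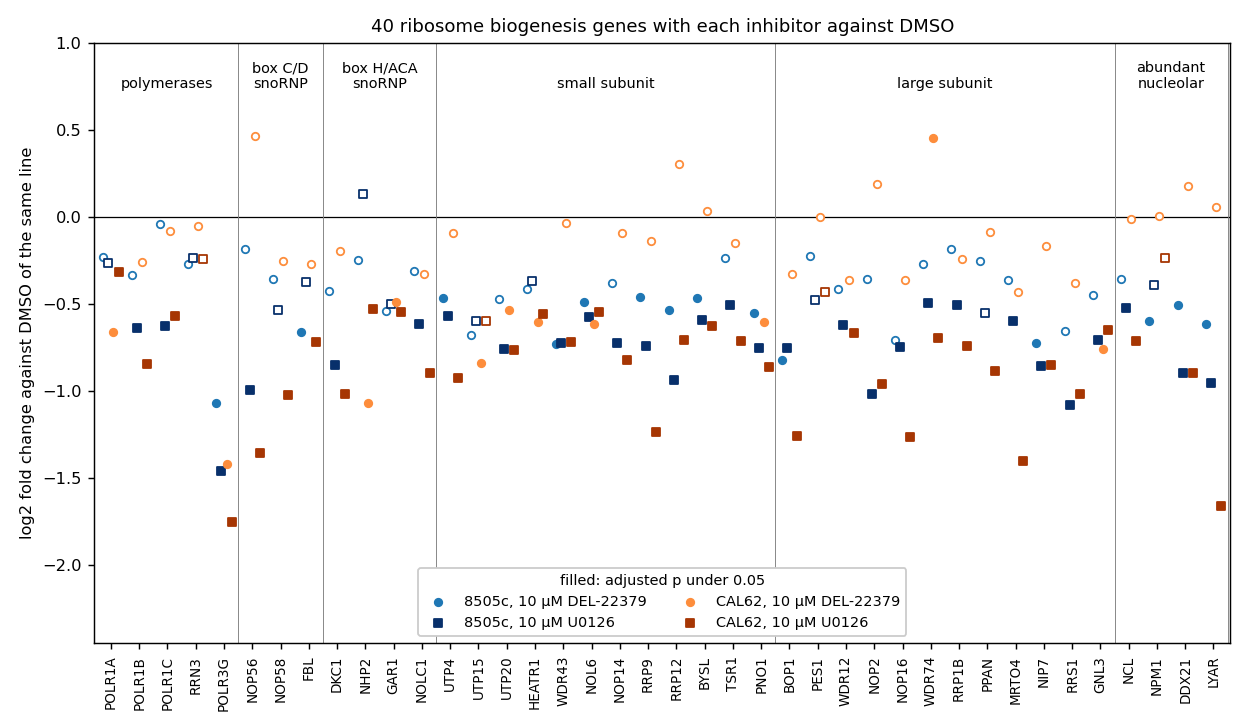
Log2 fold change of each of the 40 genes (vertical axis) with 10 µM DEL-22379 (circles) or 10 µM U0126 (squares) against DMSO in 8505c (blue) and CAL62 (orange and brown) cells, grouped by role along the horizontal axis. Filled symbols passed an adjusted p under 0.05. Squares lie below 0 for 40 of 40 genes in CAL62 and 39 of 40 in 8505c cells, with POLR3G lowest in both, while orange circles of CAL62 cells with DEL-22379 lie on both sides of 0.

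The DNA just upstream of these genes was read for 2 motifs known to bind factors downstream of ERK, CCGGAAG for the ETS family and CACGTG for MYC, on both strands and in the 250 bases before any start site that RefSeq lists for the gene on build GRCh38.p14. Of the 40 genes, 33 matched an entry, and NOP58, NOLC1, RRP12, BOP1, RRS1, RRP1B and POLR3G did not. CCGGAAG stood in 13 of the 33 (39.4%), against 17.4% of 12127 genes of the same filter with an entry and 10.2% of all 27305 genes with an entry. CACGTG stood in 4 of the 33 (12.1%), against 10.8% and 7.73% in those groups of genes. With U0126, 12 of the 13 genes with CCGGAAG and 17 of the 20 without it fell in CAL62 cells, and 9 of 13 and 14 of 20 fell in 8505c cells. A match describes letters and not a bound site. Shown here are the matches of 3 genes described here by sample whose motif lies outside annotated exons, in lower case with CCGGAAG in capitals, 5′ to 3′ on the strand of the gene.
RRP9: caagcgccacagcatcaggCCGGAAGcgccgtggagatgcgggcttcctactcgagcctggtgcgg
DDX21: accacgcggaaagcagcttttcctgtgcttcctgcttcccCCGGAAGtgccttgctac
FBL: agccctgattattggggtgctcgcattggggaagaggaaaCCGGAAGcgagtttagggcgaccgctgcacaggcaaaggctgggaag
The RRP9 stretch lies at chr3:51942089-51942154 on the minus strand, with the motif starting 231 bases before the start site. The DDX21 stretch lies at chr10:68956070-68956127 on the plus strand, with the motif starting 60 bases before the start site. The FBL stretch lies at chr19:39846526-39846612 on the minus strand, with the motif starting 193 bases before the start site.

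In 8505c cells 10 µM DEL-22379 lowered part of the group. Of the 40 genes 14 fell and none rose, with a median log2 fold change of -0.44 against 0.01 over all genes tested, of which 6.57% fell. All 40 had a negative fold change, and for 37 of 40 both treated libraries lay below both DMSO libraries, against 29.6% of all genes tested. No member passed the stricter pair of thresholds, which 1.23% of all genes tested passed. POLR3G had 753 and 948 normalized counts with 10 µM DEL-22379, against 1758 and 1799 with DMSO (log2 fold change -1.07, standard error 0.23, adjusted p = 0.011), the lowest fold change of the 40. BOP1 had 4435 and 3901 with DEL-22379, against 7628 and 7129 with DMSO (log2 fold change -0.83, standard error 0.19, adjusted p = 0.015). In both genes the treated libraries lay well below the DMSO libraries. FBL (ENSG00000105202.9, chromosome 19 from 39834458 to 39846414) had 2650.4 and 2827 with DEL-22379, against 4219.7 and 4449 with DMSO (log2 fold change -0.66, standard error 0.16, adjusted p = 0.016). WDR43 (ENSG00000163811.12, chromosome 2 from 28894643 to 28948222), a member of the same small subunit complex as UTP15, had 2526 and 2856 with DEL-22379, against 4778 and 4161 with DMSO (log2 fold change -0.73, standard error 0.18, adjusted p = 0.019). No treated library overlapped a DMSO library for these 4 genes. By role, 7 of 12 small subunit factors fell (UTP4, WDR43, NOL6, RRP9, RRP12, BYSL and PNO1), as did 2 of 12 large subunit factors (BOP1 and NIP7), 3 of 4 abundant nucleolar proteins (NPM1, DDX21 and LYAR), FBL, POLR3G and none of the 4 box H/ACA genes. Their log2 fold changes ran between -1.07 for POLR3G and -0.46 for RRP9. The count depended on single libraries: it was 0 without replicate 1 of DMSO, 1 without replicate 2 of DMSO, 0 without replicate 1 of 10 µM DEL-22379 and 6 without replicate 2. It was 24 with DESeq2 on recovered reads and 29 in a fit of the 8505c libraries alone, with 0 risen in each. Adjusted p-values of POLR3G over the alternatives ran from 0.00033 to 0.12.

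In CAL62 cells the same dose moved the group less evenly. Of the 40 genes 10 fell and 1 rose, with a median log2 fold change of -0.22 against 0 over all genes tested. In that comparison 16.8% of all genes tested fell and 17.1% rose. The block for the replicate number, which the CAL62 pairing calls for, gave 16 fallen and 2 risen, the second riser being RRP12 (log2 fold change 0.30, adjusted p = 0.046 with the block). The shares of all genes given here are from the fit without the block and are no background for those counts. For 15 of the 40 genes both treated libraries lay below both DMSO libraries and for 3 both lay above, against 29.8% and 31.3% of all genes tested. NHP2 had 1186 and 1290.0 normalized counts with 10 µM DEL-22379, against 2932 and 2308 with DMSO (log2 fold change -1.07, standard error 0.16, adjusted p = 0.00035). POLR1A (ENSG00000068654.16, chromosome 2 from 86020216 to 86106155) had 3001 and 2631 with DEL-22379, against 4594 and 4321 with DMSO (log2 fold change -0.67, standard error 0.10, adjusted p = 0.00039). POLR3G had 324 and 294 with DEL-22379, against 1025 and 672 with DMSO (log2 fold change -1.42, standard error 0.23, adjusted p = 0.00065). For each of these genes the treated libraries lay below both DMSO libraries. NOL6 (ENSG00000165271.17, chromosome 9 from 33461441 to 33473930), a small subunit factor that binds the early precursor, had 2947 and 2479.8 with DEL-22379, against 4491 and 3840.2 with DMSO (log2 fold change -0.62, standard error 0.12, adjusted p = 0.0023). The others that fell were GAR1, UTP15, UTP20, HEATR1, PNO1 and GNL3, at -0.49 to -0.84 on the log2 scale. Of these, GAR1 kept its call in 13 of 29 alternatives and the rest in 25 to 29. GNL3 encodes nucleostemin, a nucleolar GTPase of proliferating cells. WDR74 (ENSG00000133316.15, chromosome 11 from 62832342 to 62841809), a large subunit factor, was the 1 gene that rose, with 2839.8 and 3455 with DEL-22379 and 2496 and 2096 with DMSO (log2 fold change 0.45, standard error 0.12, adjusted p = 0.012). Its call was lost without replicate 2 of DEL-22379 (adjusted p = 0.11) and without replicate 2 of DMSO (adjusted p = 0.089). A gene for a spliceosomal RNA (RNU2-2P) overlaps an exon of WDR74 on the same strand, so reads of that gene cannot be told apart from those of WDR74 there. NOP56 had the largest positive fold change, 0.46, with 24617 and 32871 with DEL-22379 and 24581 and 17360.4 with DMSO, and did not pass the test (adjusted p = 0.12). All 4 abundant nucleolar proteins lay between -0.01 and 0.17 and none passed the test. The total of 11 called was 6 without replicate 1 of DMSO, 5 without replicate 2 of 10 µM DEL-22379 and 6 in a fit of the CAL62 libraries alone.

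POLR3G, NOL6 and PNO1, a late small subunit factor, were the genes that fell with 10 µM DEL-22379 in both lines, 30% of the 10 that fell in CAL62 and 21.4% of the 14 that fell in 8505c cells. Lists of this size can share some genes in any case, and the share of all genes that fell in both lines was not computed. PNO1 had 1192 and 964 normalized counts with DEL-22379 and 1767 and 1504 with DMSO in CAL62 cells (log2 fold change -0.60), and 1028 and 1342 with DEL-22379 and 1804 and 1646 with DMSO in 8505c cells (log2 fold change -0.55). The treated libraries were the low ones in both lines, without overlap. PNO1 kept its call in 27 of 29 alternatives in CAL62 cells and in 17 of 29 in 8505c cells, where NOL6 kept its own in 24 and POLR3G in 26. In 8505c cells the call of PNO1 was lost without any 1 library of that line other than replicate 2 of 10 µM DEL-22379, and its fold change was -0.36 (adjusted p = 0.29) without replicate 1 of that group.

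**Figure D2:**
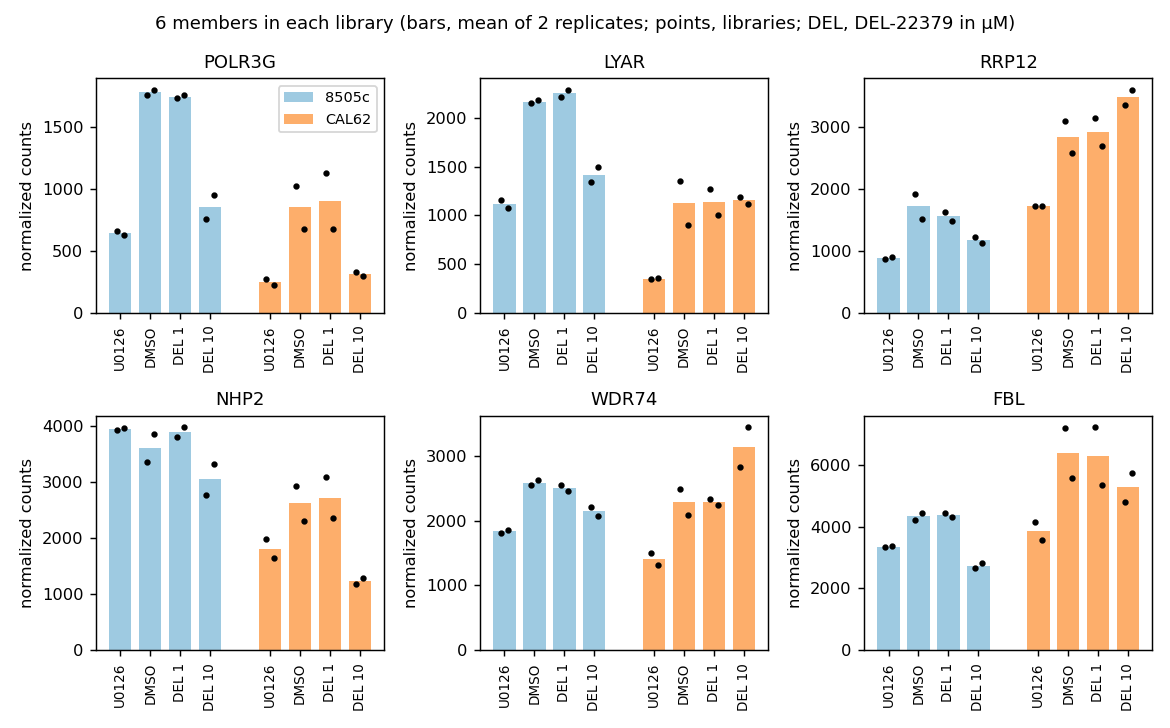
Normalized counts (vertical axes, from 0) of POLR3G, LYAR, RRP12, NHP2, WDR74 and FBL with 10 µM U0126, DMSO, 1 µM DEL-22379 and 10 µM DEL-22379 in 8505c (blue) and CAL62 (orange) cells. Bars are means of 2 libraries and points the libraries. POLR3G is low with 10 µM of either inhibitor in both lines, LYAR is low in CAL62 cells with U0126 at 346 and 353 but not with DEL-22379 at 1188 and 1116, and WDR74 is highest in CAL62 cells with 10 µM DEL-22379.

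With 1 µM DEL-22379 no gene of the group passed the test in either line, where limma called 3 of 19127 genes in 8505c cells (0.0157%) and 0 in CAL62 cells (0%). At an unadjusted p under 0.05 limma also counted 0 of the 40 in each line, against 3.87% of all genes tested in 8505c and 1.76% in CAL62 cells, and edgeR and DESeq2 called 0 of the 40. Log2 fold changes of the 40 genes ran from -0.13 to 0.14 in 8505c cells (median 0.01) and from -0.12 to 0.15 in CAL62 cells (median 0.04). POLR3G had 1731 and 1753 normalized counts with 1 µM DEL-22379 and 1758 and 1799 with DMSO in 8505c cells, and 1122 and 677 with 1 µM DEL-22379 and 1025 and 672 with DMSO in CAL62 cells. In CAL62 cells the libraries fell into pairs by replicate number, whichever of the 2 they were treated with.

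Library by library, the median of the 40 genes relative to the mean of the line's DMSO libraries was -0.71 and -0.85 with U0126 in CAL62 cells, -0.18 and -0.25 with 10 µM DEL-22379, 0.19 and -0.14 with 1 µM DEL-22379 and 0.16 and -0.16 with DMSO, on the log2 scale. In 8505c cells it was -0.59 and -0.68 with U0126, -0.47 and -0.43 with 10 µM DEL-22379, 0.06 and -0.03 with 1 µM DEL-22379 and 0.05 and -0.05 with DMSO. Replicate 2 of CAL62 with DMSO thus lay nearly as low as the CAL62 libraries with 10 µM DEL-22379, while both U0126 libraries lay well below it. Along with this split, 20853 genes had a value above 0 in replicate 1 and 23546 in replicate 2 of CAL62 with DMSO, from 25683054 and 33960392 reads. The part of depth in the split was not tested.

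**Figure D3:**
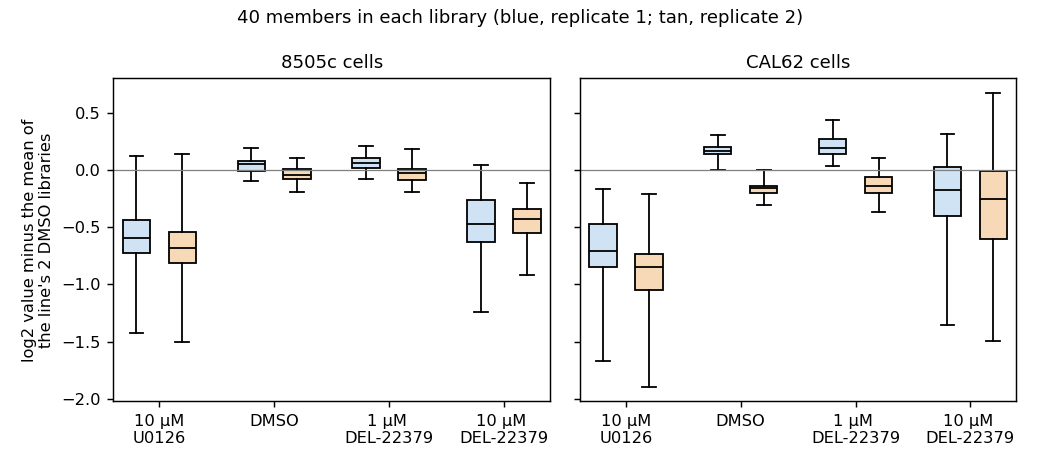
Log2 value of the 40 genes minus the mean of the line's 2 DMSO libraries (vertical axis), 1 box per library, for U0126, DMSO, 1 µM DEL-22379 and 10 µM DEL-22379 in 8505c and CAL62 cells. Boxes span the quartiles with the median as a line, whiskers the lowest and highest gene, blue is replicate 1 and tan replicate 2. The medians of CAL62 DMSO libraries lie at 0.16 and -0.16, apart from each other, and those of U0126 at -0.71 and -0.85.

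Set against each other at 10 µM, the inhibitors differed most in CAL62 cells. With U0126, 26 of the 40 genes were lower than with DEL-22379 and 2 were higher, with a median log2 difference of -0.61, in a comparison where 22.1% of all genes tested were lower and 21% higher with U0126. LYAR had 346 and 353 normalized counts with U0126 and 1188 and 1116 with DEL-22379 (log2 fold change -1.72, standard error 0.17, adjusted p = 7.4e-06). WDR74 had 1507 and 1319 with U0126 and 2839.8 and 3455 with DEL-22379 (log2 fold change -1.15, standard error 0.12, adjusted p = 1.3e-05). For both genes the libraries of U0126 lay far below those of DEL-22379. NOP56 had the largest difference of the group, -1.82 on the log2 scale (adjusted p = 3.6e-05). The 2 genes higher with U0126 were NHP2, with 1978 and 1636 with U0126 and 1186 and 1290.0 with DEL-22379 (log2 fold change 0.54, standard error 0.16, adjusted p = 0.015), and POLR1A, with 3574 and 3573 with U0126 and 3001 and 2631 with DEL-22379 (log2 fold change 0.35, standard error 0.10, adjusted p = 0.014). The calls of both were lost in some fits without 1 library. The total of 28 called was 18 without replicate 2 of U0126.

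In 8505c cells 3 of the 40 genes were lower with U0126 than with 10 µM DEL-22379 and none higher, with a median log2 difference of -0.23, against 4.55% of all genes tested lower with U0126. NOP2 (ENSG00000111641.12, chromosome 12 from 6556863 to 6568691), a methyltransferase of large subunit RNA, had 1484 and 1320.0 normalized counts with U0126 and 2509 and 1958 with DEL-22379 (log2 fold change -0.66, standard error 0.17, adjusted p = 0.032). NOP56 had 10757 and 10201 with U0126 and 20968 and 16122 with DEL-22379 (log2 fold change -0.81, standard error 0.22, adjusted p = 0.035). The DEL-22379 replicates of both genes lay far apart, replicate 1 being the higher. POLR1C differed by -0.59 (adjusted p = 0.035). All 3 calls were lost without replicate 1 of DEL-22379 and without either replicate of U0126, and the count was 1 without either replicate of 1 µM DEL-22379 and 15 (13 lower and 2 higher with U0126) in a fit of the 8505c libraries alone. Scaled to equal totals or by quantiles, 8 genes were called, all lower with U0126.

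The response to 10 µM DEL-22379 differed between the lines for 4 of the 40 genes, with the response in CAL62 minus that in 8505c cells as the measure. That is a smaller share than the 14.4% of all genes tested that differed. RRP12 had 3359 and 3609 normalized counts with DEL-22379 and 3095 and 2577 with DMSO in CAL62 cells, and 1227 and 1125 with DEL-22379 and 1920.1 and 1516 with DMSO in 8505c cells (log2 difference 0.84, standard error 0.19, adjusted p = 0.013). Treated libraries lay above DMSO in CAL62 and below it in 8505c cells. WDR74, given above for CAL62 cells, had 2217 and 2080.3 with DEL-22379 and 2556 and 2632 with DMSO in 8505c cells (log2 difference 0.73, standard error 0.17, adjusted p = 0.015). DDX21 had a difference of 0.68 (adjusted p = 0.037) and NHP2, with a deeper loss in CAL62 cells, of -0.82 (adjusted p = 0.030). Of 28 alternatives, RRP12 kept its call in 26, WDR74 in 25, NHP2 in 20 and DDX21 in 13. The replicate block held a term for the number in each line, though pairing in 8505c cells is not settled. Under it 8 genes had a higher response in CAL62 cells, RRP12, WDR74 and DDX21 with BYSL, LYAR, NIP7, NOP2 and WDR43. NHP2 and POLR1A had a lower one. The share of 14.4% is from the fit without the block and is no background for those genes. The count was 1 without either replicate of 8505c DMSO or without replicate 2 of CAL62 with 10 µM DEL-22379. With only the CAL62 libraries numbered 1 it was 1 (NHP2), and with only those numbered 2 it was 15, all higher in CAL62 cells. Scaling to equal totals moved the median of all genes in this comparison by -0.19 on the log2 scale, and the median of the 40 genes was 0.22 as fitted and 0.02 under that scaling.

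For U0126, limma called 0 of the 40 genes as different between the lines, against 5.69% of all genes tested. At an unadjusted p under 0.05 it counted 4 of the 40, against 19.1% of all genes tested, while edgeR called 0 and DESeq2 called 2. The median log2 difference was -0.14. The smallest p-values belonged to MRTO4 (log2 difference -0.81, standard error 0.25, adjusted p = 0.084) and LYAR (log2 difference -0.71, standard error 0.23, adjusted p = 0.11), both with a larger loss in CAL62 cells. MRTO4 had 881 and 849 with U0126 and 2583 and 2033 with DMSO in CAL62 cells, and 2571 and 2245 with U0126 and 3767 and 3513 with DMSO in 8505c cells. LYAR had 1162 and 1076 with U0126 and 2151 and 2183 with DMSO in 8505c cells. For both genes the U0126 libraries were the low ones in either line. Under the replicate block 3 genes differed, MRTO4 at -0.81 (adjusted p = 0.0031), LYAR at -0.71 (adjusted p = 0.028) and NHP2 at -0.66 (adjusted p = 0.023). The share of 5.69% is from the fit without the block. Without replicate 2 of CAL62 DMSO the count was also 3, and without either replicate of CAL62 with 1 µM DEL-22379 it was 1.

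Other genes of the pathway, listed by role, moved in the same direction with U0126. Of 40 other small subunit factors 27 fell in CAL62 and 16 in 8505c cells, of 40 other large subunit factors 31 and 16, and none of these rose, beside the backgrounds of 15.1% and 5.87%. Their median log2 fold changes were -0.49 and -0.54 in CAL62 cells and -0.43 and -0.45 in 8505c cells for small and large subunit factors. PDCD11, a large scaffold of early processing, and UTP18 fell by 0.97 and 0.85 in CAL62 cells, and AATF and RIOK1, a late small subunit kinase, by 0.69 and 0.78 in 8505c cells. MDN1, the giant ATPase that strips factors from the large subunit, fell by 1.01 in CAL62 and 0.87 in 8505c cells. DDX55 fell by 0.86 in CAL62 cells and RPF2, which brings a ribosomal RNA particle to the large subunit, by 0.75 in 8505c cells. With 10 µM DEL-22379, 12 of the small and 11 of the large subunit factors fell and none rose in 8505c cells, with AATF (-0.61), RRP36 (-0.57), TEX10 (-0.68) and EIF6 (-0.64) among them. In CAL62 cells 11 and 10 fell and 3 and 5 rose, with PDCD11 (-1.11), WDR3 (-0.78) and MDN1 (-0.62) lower and SENP3, a protease that removes SUMO from large subunit factors, higher (0.65). With that dose 16.8% of all genes tested fell and 17.1% rose in CAL62 cells, and 6.57% fell in 8505c cells.

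The counts of the next 3 lists stand beside 15.1% of all genes tested that fell with U0126 in CAL62 and 5.87% in 8505c cells. With 10 µM DEL-22379, 16.8% fell and 17.1% rose in CAL62 cells, and 6.57% fell in 8505c cells. Of 12 other RNA polymerase I genes 6 fell with U0126 in CAL62 and 3 in 8505c cells. TCOF1, which encodes the nucleolar phosphoprotein treacle, fell by 1.62 in CAL62 and 0.82 in 8505c cells, and the polymerase I subunits POLR1E and CD3EAP by 1.19 in CAL62 and 1.21 in 8505c cells. DEL-22379 at 10 µM lowered 4 and raised 1 in CAL62 cells and lowered 3 in 8505c cells. The subunit genes ZNRD1 (-0.93 in CAL62 and -0.81 in 8505c cells) and POLR1E (-0.67 and -0.56) fell in both lines. The 19 other RNA polymerase III genes stood nearer the background, with 4 fallen and 1 risen with U0126 in CAL62 and 3 and 1 in 8505c cells. POLR3GL, the paralog that POLR3G replaces, rose by 0.81 in CAL62 cells, and the subunit POLR3K fell by 1.89 in CAL62 and 0.77 in 8505c cells, where POLR3E fell by 0.47. With 10 µM DEL-22379, 5 fell and 4 rose in CAL62 cells, among them POLR3B (-0.81) and MAF1, the repressor of polymerase III (0.54). In 8505c cells 5 fell and 1 rose, with POLR3B at -0.59 and POLR3F at -0.43. Of 12 other snoRNP genes 6 fell with U0126 in CAL62 and 2 in 8505c cells, with SNU13, a box C/D core protein, at -0.95 in CAL62 cells, NAF1, an assembly factor of box H/ACA particles, at -0.84 in CAL62 and -0.63 in 8505c cells, and RUVBL1 at -0.47 in 8505c cells. DEL-22379 at 10 µM lowered 4 in CAL62 cells (ZNHIT6 at -0.68, TGS1 at -0.58) and 2 in 8505c cells (TGS1 at -0.60, NOP10 at -0.51).

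**Figure D4:**
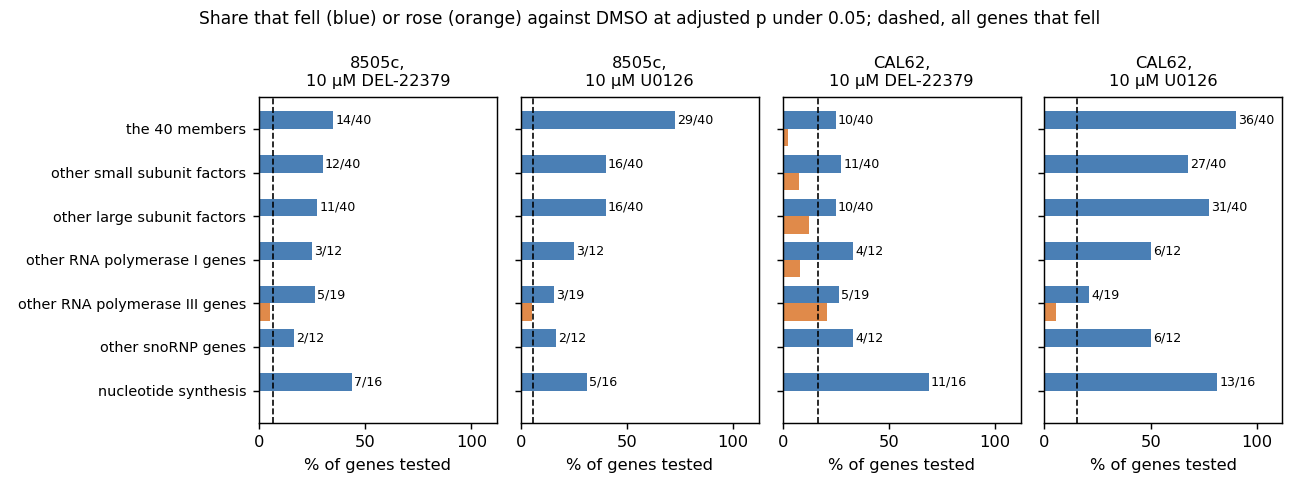
Share of genes that fell (blue, with the count) or rose (orange) against DMSO at an adjusted p under 0.05, in % of the genes tested of each list, for the 40 genes and 6 other lists in the 4 comparisons with 10 µM of an inhibitor. The dashed line is the share of all 19127 genes that fell. With U0126 the 40 genes reach 36 of 40 in CAL62 cells, against 15.1% of all genes, and with DEL-22379 they reach 14 of 40 in 8505c cells, against 6.57%.

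MYC, the transcription factor known to drive ribosome production, had 3884 and 1936 normalized counts with U0126 and 4597 and 4864 with DMSO in CAL62 cells (log2 fold change -0.79, standard error 0.23, adjusted p = 0.023). The U0126 libraries were lower but far apart, and without replicate 2 of U0126 the log2 fold change was -0.28 (adjusted p = 0.22). In 8505c cells MYC had 5122 and 5499 with U0126 and 8041 and 9121 with DMSO (log2 fold change -0.69, adjusted p = 0.071), which did not pass the test, with adjusted p-values of 0.0032 to 0.27 over the alternatives. At 10 µM of DEL-22379 MYC had 4438 and 4505 in CAL62 cells (log2 fold change -0.08, adjusted p = 0.83) and 5618 and 6727 in 8505c cells (-0.48, adjusted p = 0.19). Of 11 tested genes of the MYC network, MXD4, a partner of MAX that represses MYC targets, rose with U0126 in CAL62 (1.22) and 8505c cells (1.43) and with DEL-22379 in 8505c cells (1.22). MXD3 fell with U0126 in CAL62 cells (-1.19), and MXI1 rose with U0126 in 8505c cells (0.92). MYCL rose with DEL-22379 in 8505c cells, with 35.3 and 26.0 normalized counts with DEL-22379 and 3.42 and 6.48 with DMSO. In CAL62 cells with DEL-22379 MXD1 rose (1.88), and MYCL rose there at a low level, with 49.8 and 104 normalized counts with DEL-22379 and 4.01 and 7.39 with DMSO.

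Of 16 genes of purine and pyrimidine synthesis, which supplies the precursors of ribosomal RNA, 13 fell with U0126 in CAL62 and 5 in 8505c cells, and 11 fell with 10 µM DEL-22379 in CAL62 and 7 in 8505c cells, with none risen in any of these comparisons. The share with DEL-22379 in CAL62 cells stood above the background of 16.8%, where the 40 ribosome genes had 10 fallen. The other backgrounds were 15.1% and 5.87% with U0126 in CAL62 and 8505c cells and 6.57% with DEL-22379 in 8505c cells. CAD, the enzyme of the first pyrimidine steps, fell with U0126 by 1.05 in CAL62 and 0.66 in 8505c cells. PAICS, a purine enzyme, fell with DEL-22379 by 1.43 in CAL62 and 0.50 in 8505c cells. CTPS1, which makes CTP, fell by 1.20 with U0126 in 8505c cells, PRPS2 by 1.35 with U0126 in CAL62 cells, NME1 by 1.15 with DEL-22379 in CAL62 cells and GART by 0.54 with DEL-22379 in 8505c cells. Of 12 host genes of snoRNAs in CAL62 cells, 3 fell and none rose with U0126, where 15.1% of all genes fell, and none fell and 4 rose with 10 µM DEL-22379, where 16.8% fell and 17.1% rose. There SNHG1 and SNHG12 fell with U0126 (-1.09 and -0.91), and ZFAS1 and SNHG7 rose with DEL-22379 (1.82 and 1.32). In 8505c cells 7 of 12 fell with U0126, where 5.87% of all genes fell, among them GAS5 (-0.87) and SNHG8 (-0.67). In 8505c cells with 10 µM DEL-22379 limma called none of the 12, with SNHG16 at -0.31 and SNHG1 at -0.48 (adjusted p = 0.19 and 0.20), and 0 had an unadjusted p under 0.05.

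The counting of strand is not given in the sources used here. Exons of 10 of the 40 genes overlap another annotated gene on the same strand and those of 17 a gene on the opposite strand, and 9 have a named pseudogene in the annotation, so reads of these genes can include those of their neighbours or copies.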

How the data were processed

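RNA was sequenced as stranded mRNA libraries with paired reads of 51 bases in 16 libraries, 2 for each of 8 groups of cell line and treatment. The deposited table holds, for 60715 gene IDs and 16 libraries, a signal that the authors made by dividing read counts by 1 size factor per library (normalized counts). The genome build was GRCh38 per the labels. No aligner, counter or annotation is given in the sources used here. In each library 100% of values under 200 were whole multiples of 1 step within 0.02 reads, so whole reads were recovered, 25683054 to 43855905 per library. In 1 library the step lay too near 1 to be told from rounding. Coordinates are those of GENCODE on GRCh38.

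The 19127 genes that reached 10 normalized counts in 2 or more libraries were tested with limma 3.58.1 in R 4.3.3 on log2(normalized count + 1), with 1 mean per group, trended and robust variance moderation and Benjamini-Hochberg adjustment over all genes tested, two-sided. The fit was tested on simulated data. Fold changes on this scale understate those of low genes. The 40 genes, the other lists and the alternatives were chosen with earlier results of these data known. Genes given library by library were the 4 with the smallest p in each comparison of 10 µM DEL-22379 or U0126 with DMSO, the 2 with the smallest p in each line difference and each comparison of the inhibitors, the 2 most raised and 2 most lowered between the untreated lines, and MYC. NOP56, NHP2, WDR74, POLR1A, PNO1, RRP12, MYCL and NPM1 are also given so where a sentence turns on them, chosen after their values were seen. In each other list the 2 genes with the smallest p in each main comparison are named. Same-numbered CAL62 libraries were taken as paired from the values alone. All 6 correlations of their deviations from group means were over 0.1 (0.22 to 0.50), a property of these libraries not stated in the labels. The fit as reported ignores this pairing, and the replicate block, with a term for the number in each line, is an alternative. Alternatives were other scalings, filters and a pseudocount of 8, plain variance moderation, fits of 1 line, a replicate block, edgeR 4.0.16 and DESeq2 1.42.0 on the recovered reads and each library left out. Fits with only the CAL62 libraries of 1 number were added after seeing the data. Columns of every library were used. Proteins were not analysed here. Some items are not reported here.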

Additional observations from a re-analysis of the deposited data

Results flagged for a closer look

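For 4 of the 40 genes the response to 10 µM DEL-22379, as a log2 fold change against DMSO, differed between the lines. The test was limma's, of the difference of the responses, with CAL62 minus 8505c as the measure. The share that differed was smaller than the 14.4% of all genes tested. The difference was 0.84 for RRP12 (adjusted p = 0.013), 0.73 for WDR74 (adjusted p = 0.015), 0.68 for DDX21 (adjusted p = 0.037) and -0.82 for NHP2 (adjusted p = 0.030). Of 28 alternatives, RRP12 kept its call in 26, WDR74 in 25, NHP2 in 20 and DDX21 in 13.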

How the results depend on the processing

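No called gene's fold change changed sign under any alternative run. With only the CAL62 libraries numbered 1, the call left for the line difference of 10 µM DEL-22379 was NHP2, which is lower in CAL62 cells, against 3 higher and 1 lower as reported. Counts of the 40 genes called moved by over 1.5 times as follows, and the cause was not tested. Shares of all genes tested are from the fit as reported and are no background for counts of the alternatives. For 10 µM DEL-22379 in 8505c cells the count of 14 was 29 in a fit of that line alone, 33 with the replicate block, 5 with plain variance moderation, 24 with DESeq2 and 29 with only the CAL62 libraries numbered 1 or only those numbered 2, which enter through the shared spread. For that dose in CAL62 cells the count of 11 was 6 in a fit of that line alone and 18 with the replicate block. For U0126 against DEL-22379 in 8505c cells the count of 3 was 8 when scaled to equal totals, 8 with quantile normalization, 15 in a fit of that line alone, 14 with the replicate block, 0 with plain variance moderation, 6 with DESeq2, and 15 and 14 with only the CAL62 libraries numbered 1 and 2. For the line difference of the response to 10 µM DEL-22379 the count of 4 was 10 with the replicate block, 2 with plain variance moderation, 1 with only the CAL62 libraries numbered 1 and 15 with only those numbered 2. For that of U0126 the count of 0 was 1 when scaled to equal totals, 1 with quantile normalization, 3 with the replicate block, 2 with DESeq2 and 5 with only the CAL62 libraries numbered 1. Leaving out 1 library at a time, which leaves an arm with 1 sample assumed to vary like the other groups, gave 6 to 31 genes called for U0126 and 0 to 20 for 10 µM DEL-22379 in 8505c cells, 21 to 38 for U0126 and 5 to 15 for 10 µM DEL-22379 in CAL62 cells, 0 to 0 with 1 µM DEL-22379 in both lines, 0 to 4 and 18 to 29 for U0126 against DEL-22379 in 8505c and CAL62 cells, 1 to 5 and 0 to 3 for the line differences of DEL-22379 and U0126, and 14 to 21 between the untreated lines. Over the same fits the median log2 fold change of the 40 genes ran from -0.92 to -0.59 with U0126 in CAL62 cells, from -0.68 to -0.59 with U0126 in 8505c cells, from -0.37 to -0.03 with 10 µM DEL-22379 in CAL62 cells and from -0.47 to -0.38 with 10 µM DEL-22379 in 8505c cells. It ran from -0.57 without replicate 1 to -0.16 without replicate 2 of CAL62 DMSO between the untreated lines. For the line difference of 10 µM DEL-22379 it was 0.37 without replicate 1 and 0.05 without replicate 2 of CAL62 DMSO, and for that of U0126 -0.00064 and -0.27. Scaling to equal totals moved the median of all genes by 0.13 for 10 µM DEL-22379 in 8505c cells, -0.19 for the line difference of that dose and 0.12 between the untreated lines, on the log2 scale. In 8505c cells same-numbered libraries were not taken as paired by the rule used, since not all correlations across genes tested were over 0.1 (0.088 to 0.12). Over genes with a mean above 100 the correlations were 0.28 to 0.82 in CAL62 and 0.21 to 0.36 in 8505c cells, all over 0.1. Whether the numbers mark pairs in 8505c cells is therefore not settled by these values. In the other comparisons the replicate block gave counts within 1.5 times of those reported (39 and 36 with U0126 in CAL62 and 8505c cells, 30 for U0126 against DEL-22379 in CAL62 cells, 26 between the untreated lines and 0 with 1 µM DEL-22379 in both).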
